A study of Mus musculus with 15 samples.

Results

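Il10 and Socs3 were followed as 2 transcripts out of 113193 quantified in each library. They were picked out of the files by identifier, with no threshold on a measured value, but the pair itself was chosen with earlier results of these data known. ENSMUST00000016673 (version 5 in the files, 1310 nt) stands for Il10 and ENSMUST00000054002 (version 3, 2552 nt) for Socs3, as principal spliced transcripts of the 2 genes. The samples were bone marrow-derived macrophages of C57BL/6 mice, grown from marrow cells in medium conditioned by L929 cells and taken on day 7 of differentiation. Cells received no treatment, or lipopolysaccharide (LPS) at 10 ng/ml for 30 min, 1 h, 2 h or 4 h, and each of these 5 groups held 3 libraries. Chromatin-associated RNA was sequenced, a fraction rich in RNA that is still on or near its template. The levels refer to 1 spliced transcript per gene, so they do not measure all RNA of the gene in that fraction. No genotype, agent or transgene other than LPS is given for any group, and nothing in the labels says whether replicates were separate animals or cultures. P-values therefore reflect only how far these libraries scatter, and that scatter may be technical.

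LPS, a component of the outer membrane of Gram-negative bacteria, is sensed by Toll-like receptor 4, which activates NF-kB, MAP kinases and interferon regulatory factors in macrophages. Il10 encodes interleukin-10, a secreted cytokine that restrains inflammatory gene expression. It acts on its receptor through the kinases JAK1 and TYK2 and the transcription factor STAT3. Socs3 encodes suppressor of cytokine signalling 3, an intracellular inhibitor whose gene is a target of STAT3. The protein binds the shared receptor subunit gp130 and inhibits JAK kinases, which limits signalling by interleukin-6 more than that by interleukin-10.

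The libraries held 7537521 to 11892599 estimated counts. Library scaling factors (TMM, trimmed mean of M values) ran from 0.679 to 1.52. The most abundant transcript took 9.66% to 41.2% of the counts, a share that lowers every other TPM of the same library. TPM is a level per effective length that sums to the same total in each library. CPM, used for the tests, is a count scaled with TMM and not divided by length. Both transcripts passed the filter on low counts, which kept 46186. The other transcripts carry identifiers only, so macrophage markers and further genes of the IL-10 and STAT3 pathway were not analysed here. In bulk RNA, a change in the number of cells that transcribe a gene and a change in RNA per cell cannot be told apart.

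The 2 transcripts were low in untreated cells and high in every LPS library. Il10 stood at an estimated 25.5 to 38.4 times its untreated level across the 4 times, and Socs3 at 55.3 to 118 times. All 12 LPS libraries lay above the highest untreated library for each transcript, in TPM and in CPM. How many of all tested transcripts separate in this way was not counted. Socs3 passed the test at all 4 times and Il10 at 2 h and 4 h, and Il10 passed at all 4 once the replicate number was held as a block. No difference between LPS times passed for either transcript.

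Il10 in untreated cells was measured at 4.59, 5.80 and 1.99 TPM in replicates 1, 2 and 3, from estimated counts of 26, 22 and 7. The count of 7 has an exact 95% Poisson interval of 2.81 to 14.4, which like all such intervals covers counting error only. At 30 min the Il10 level was 95.97, 169.995 and 17.02 TPM in the same order. The lowest of these, replicate 3, still exceeded the highest untreated value, and the groups did not overlap.

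At 1 h the Il10 level was 183.9, 42.96 and 17.5 TPM. At 2 h it was 238, 83.1 and 21.8 TPM, and at 4 h 186, 77.4 and 20.2 TPM. Replicate 3 was the lowest library in all 5 groups, and within each LPS group the highest library held 9.19 to 10.9 times the TPM of the lowest. In untreated cells that ratio was 2.92. Mean Il10 levels were 4.13 ± 1.95 TPM before LPS (SD, n = 3), then 94.3 ± 76.5 after 30 min, 81.4 ± 89.6 after 1 h, 114.4 ± 112 after 2 h and 94.4 ± 84.1 after 4 h. The SD was above the mean at 1 h, just below it at 2 h and below it at 30 min and 4 h.

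Socs3 in untreated cells was measured at 9.51, 7.57 and 2.68 TPM, from estimated counts of 120, 64 and 21. At 30 min it was at 184.7, 367 and 145.6 TPM in replicates 1, 2 and 3. Every 30 min library thus lay well above every untreated library. At 1 h the level was 354, 394 and 225 TPM.

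The highest Socs3 value of the course was 961 TPM, in replicate 1 at 2 h, where replicates 2 and 3 had 482 and 180 TPM. At 4 h the values were 681, 518 and 156 TPM. Replicate 3 was again the lowest in TPM in all 5 groups, although in CPM replicate 1 was lowest at 30 min. Mean Socs3 levels were 6.59 ± 3.52 TPM before LPS (SD, n = 3), then 233 ± 118 after 30 min, 324 ± 88.6 after 1 h, 541 ± 394 after 2 h and 451 ± 269 after 4 h. The spread was narrowest at 1 h, with a highest library 1.75 times the lowest, and widest at 2 h, with 5.33 times.

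**Figure D1:**
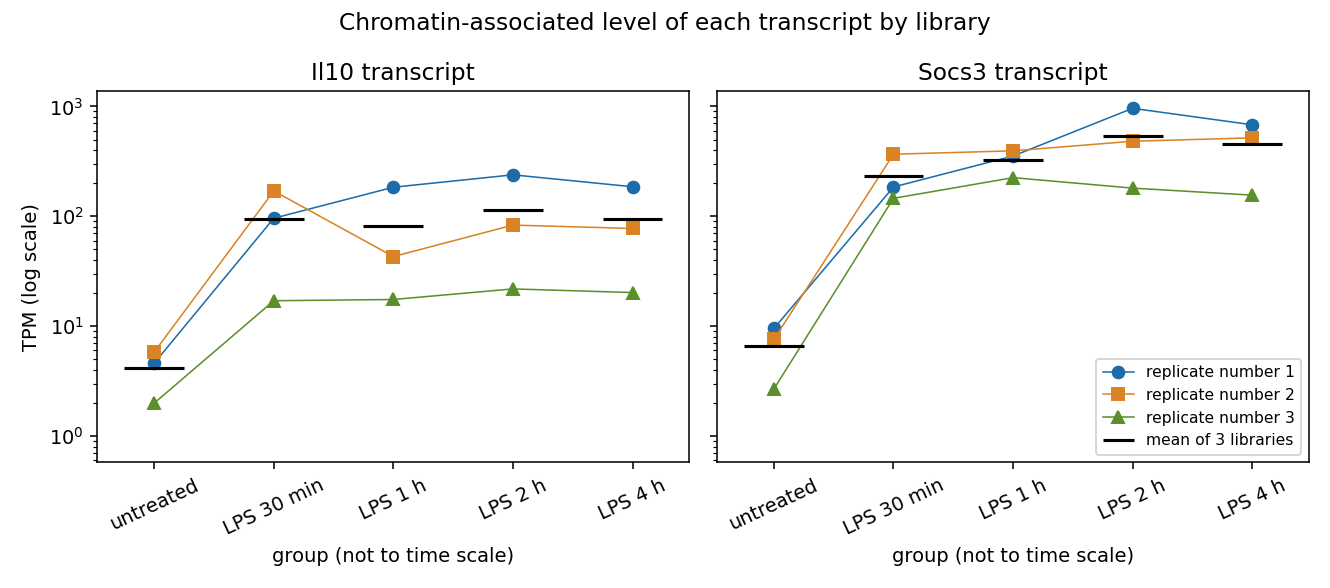
TPM (log axis) of the Il10 and Socs3 transcripts in each of the 15 libraries; lines join libraries with the same replicate number, and black bars are group means (n = 3). Il10 stays between 17.02 and 238 TPM after LPS against at most 5.80 before, Socs3 between 145.6 and 961 TPM against at most 9.51, and replicate 3 is lowest in each group.

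Set against all transcripts of a library, the 2 moved up into the top of the range. In untreated cells Il10 was at or above 63.1% to 73.5% of the 113193 transcripts by TPM, and after LPS 91.1% to 99.6%. Its best rank was 450th, in replicate 1 at 2 h. Socs3 went from 65.9% to 79.2% in untreated cells to 99.5% to 99.97% after LPS, and ranked 40th in replicate 1 at 2 h. The 113193 include many transcripts with few or no reads. Only 54065 to 60340 reached an estimated count of 1 in the untreated libraries, and 47668 to 58432 in the LPS libraries.

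The first comparison is of each time with untreated cells, tested with edgeR's quasi-likelihood method on all 46186 transcripts with Benjamini-Hochberg adjustment and a threshold of 0.05. Socs3, the intracellular inhibitor, was raised at 30 min with a log2 fold change of 5.79 ± 0.85 (SE; edgeR adjusted p = 0.0138). At that time the test called 0.351% of all transcripts raised. The log2 fold change was 6.11 ± 0.87 at 1 h (edgeR adjusted p = 0.00721, against 0.944% of transcripts called raised), 6.89 ± 0.90 at 2 h (0.00380, against 1.97%) and 6.86 ± 0.90 at 4 h (0.00172, against 3.91%). Since every LPS library lay above every untreated library, all 12 pairs of same-numbered libraries necessarily went the same way. The LPS library of a pair was the higher by 21.7 to 143 times in CPM. The 30 min call was lost without untreated replicate 1, 2 or 3 (edgeR adjusted p from 0.0813 to 0.118) or with only the 2 groups in the fit (0.183), and the 1 h call without untreated replicate 2 (0.0691).

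Il10, the secreted cytokine, had a log2 fold change of 5.14 ± 1.26 at 30 min (edgeR adjusted p = 0.146) and 4.67 ± 1.24 at 1 h (0.108), where it did not pass. It was raised at 2 h with 5.26 ± 1.27 (edgeR adjusted p = 0.0480) and at 4 h with 5.20 ± 1.27 (0.0300). For this transcript too the full separation fixes the direction of all 12 same-numbered pairs. The LPS library was the higher by 9.85 to 73.7 times in CPM. The largest of these ratios was in replicate 1 at 2 h and the smallest in replicate 3 at 1 h. The call at 2 h was lost without any of the 3 untreated libraries, 30 min replicate 1, 1 h replicate 2, 2 h replicate 1 or 2, or 4 h replicate 1 or 2 (edgeR adjusted p from 0.0596 to 0.171). The call at 4 h was lost without any untreated library or 4 h replicate 1 or 2 (edgeR adjusted p from 0.0586 to 0.115).

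Same-numbered libraries of different groups deviated together over all transcripts, so the fit was also made with the number as a block. Il10 then passed at 30 min, with a log2 fold change of 4.85 ± 0.73 (edgeR adjusted p = 0.0149, where 0.916% of transcripts were called raised), and at 1 h, with 4.34 ± 0.72 (0.0107, where 2.93% were). Its blocked estimates were 4.89 ± 0.73 at 2 h (edgeR adjusted p = 0.00306, against 6.42%) and 4.95 ± 0.73 at 4 h (0.00155, against 8.87%). In the joint test of the 4 times, Socs3 changed (F = 15.6, edgeR adjusted p = 0.00555) and Il10 did not pass (F = 4.64, adjusted p = 0.130), among 6.37% of transcripts called. With the block Il10 passed the joint test (adjusted p = 0.00803), among 16.3% called.

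**Figure D2:**
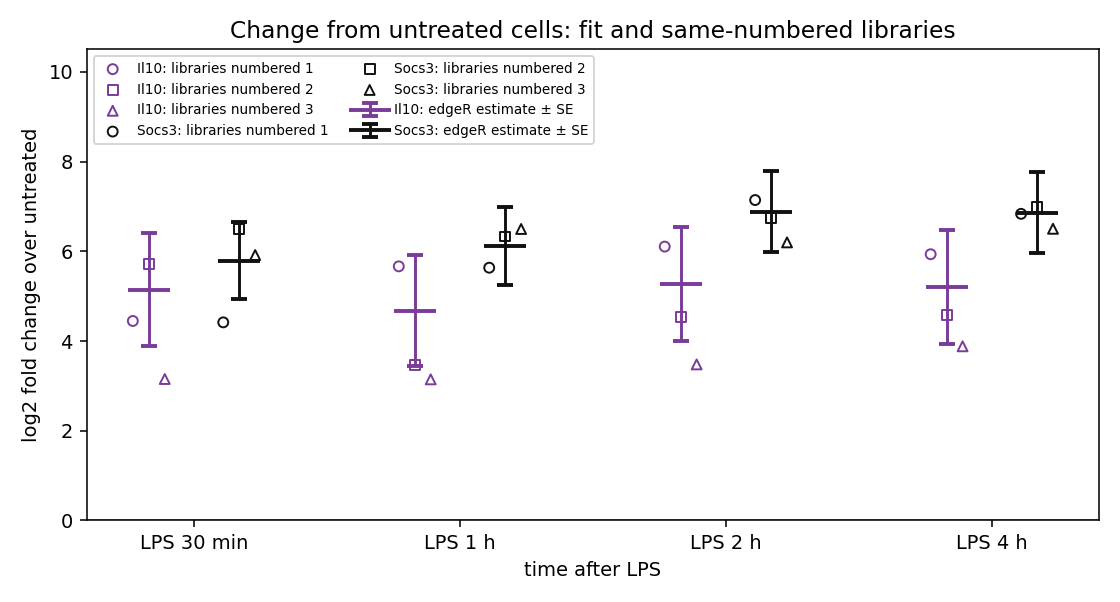
Log2 fold change over untreated cells for Il10 (purple) and Socs3 (black) at each LPS time; bars are the edgeR estimate ± SE, and open symbols are the differences in log2 CPM of libraries with the same replicate number (circle 1, square 2, triangle 3). All 24 differences lie above 3, and Il10 has its smallest difference in replicate 3 at each time.

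Read against all tested transcripts, whose median log2 fold change lay between -0.06 and 0.01 at the 4 times, the estimates of both members lay in the upper tail. Il10 exceeded 98.8%, 98.4%, 98.5% and 98.1% of transcripts from the earliest to the latest time. Socs3 exceeded 99.1%, 99.1%, 99.3% and 99.1%. By p-value Socs3 ranked 45th at 30 min, and Il10 429th. Such ranks include transcripts of very low count, whose estimates are imprecise.

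**Figure D3:**
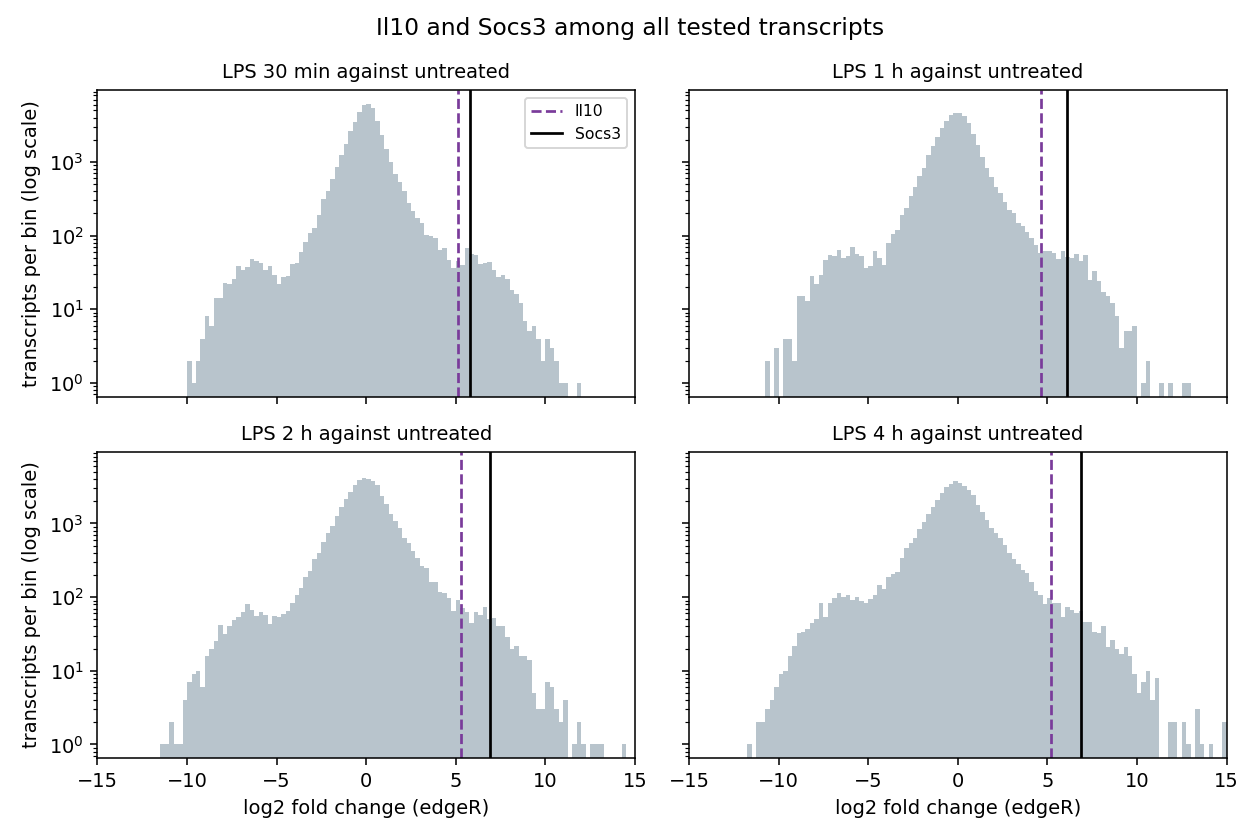
Number of tested transcripts (log axis) per bin of log2 fold change over untreated cells at each LPS time, with vertical lines at Il10 (dashed) and Socs3 (solid). Both lines lie in the upper tail at each time, with Socs3 to the right of Il10.

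The second comparison is between LPS times. By group mean, in TPM and in CPM, Il10 ran in the order 2 h, 4 h, 30 min, 1 h and untreated, and Socs3 in the order 2 h, 4 h, 1 h, 30 min and untreated. In mean log2 CPM the 4 h group stood above the 2 h group for both, at 5.33 against 5.24 for Il10 and 8.998 against 8.92 for Socs3. Both kinds of mean use the same TMM scaling, so the sign of this gap turned with averaging before or after the log. In the fit, DESeq2 size factors turned the sign for Socs3 (from -0.02 to 0.0064) but not for Il10 (-0.07 and -0.047). Neighbouring LPS times in these orders overlapped for both transcripts. From 30 min to 1 h the log2 fold change was -0.47 ± 1.05 for Il10 and 0.32 ± 0.69 for Socs3 (edgeR adjusted p = 1 for each). No transcript at all was called between these times (0% of those tested by edgeR), where 2174 had an unadjusted p under 0.05, limma on log2(TPM + 1) called 0, limma on log2(TPM + 0.1) called 2 and DESeq2 called 236.

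From 1 h to 2 h Il10 differed by 0.59 ± 1.05 and Socs3 by 0.77 ± 0.70 on the log2 scale (edgeR adjusted p = 0.976 and 0.833), where 0.422% of transcripts were called. From 2 h to 4 h the differences were -0.07 ± 1.05 and -0.02 ± 0.69 (edgeR adjusted p = 1 for each, 0.052% called). From 30 min to 2 h Socs3 differed by 1.10 ± 0.70 (edgeR adjusted p = 0.538, 1.38% called). From 30 min to 4 h Socs3 differed by 1.08 ± 0.70 (adjusted p = 0.464, 5.21% called) and Il10 by 0.05 ± 1.05 (0.990), and from 1 h to 4 h Socs3 differed by 0.75 ± 0.69 and Il10 by 0.53 ± 1.05 (adjusted p = 0.693 and 0.90, 4.15% called). Each SE here is about as large as the estimate or larger, except for the Socs3 gaps from 30 min to 2 h and to 4 h.

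Some of these gaps had the same direction in all 3 same-numbered pairs and others did not. Il10 was higher in all 3 pairs from 1 h to 2 h (1.36, 2.11 and 1.26 times in CPM) and from 1 h to 4 h (1.21, 2.16 and 1.68 times). Between 30 min and 1 h Il10 was 2.33 times higher in CPM in replicate 1, 0.210 times as high in replicate 2 and 0.995 times as high in replicate 3. Socs3 from 30 min to 2 h was higher in all 3 same-numbered pairs, by 6.63, 1.19 and 1.22 times, and from 30 min to 4 h by 5.35, 1.399 and 1.50 times, so that both gaps were largest in replicate 1. From 1 h to 4 h it was higher by 2.30, 1.57 and 1.003 times. With the block the Socs3 gap from 30 min was 1.00 ± 0.44 at 2 h and 1.02 ± 0.43 at 4 h on the log2 scale (edgeR adjusted p = 0.210 and 0.161). The remaining gaps, all from 30 min or between 2 h and 4 h for Il10 and from 30 min to 1 h, 1 h to 2 h and 2 h to 4 h for Socs3, went both ways among the pairs.

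Replicate number was tied to the level of both transcripts. In log2 CPM, 68.0% of the variance of Il10 lay between groups, 24.5% between replicate numbers and 7.5% in the rest. For Socs3 the shares were 91.5%, 5.99% and 2.48%. Within groups, 76.6% of the variance of Il10 and 70.7% of that of Socs3 lay between numbers, where it was 46.7% pooled over all tested transcripts. Taken singly, 85.2% of tested transcripts had a lower share than Il10 and 78.6% a lower share than Socs3, so that many others were tied as closely. Libraries numbered 3 lay below their group mean by 1.54 on the log2 CPM scale for Il10, on average over the 5 groups.

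For Socs3 the libraries numbered 3 lay below it by 0.91. The Il10 deviation ran from -1.95 to -0.66 and the Socs3 deviation from -1.38 to -0.54 over the 5 groups, so that neither transcript had an exception in log2 CPM. The share of the most abundant transcript was 9.66% to 12.5% in the libraries numbered 1, 17.5% to 37.6% in those numbered 2 and 12.3% to 41.2% in those numbered 3, so that numbers 2 and 3 overlapped widely. Its part in the differences of Il10 and Socs3 was not tested.

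The third comparison is whether the 2 transcripts followed the same course. Within a library the Socs3 level divided by the Il10 level, both in TPM, does not depend on library scaling. In untreated cells the ratio was 2.07, 1.31 and 1.35 in replicates 1, 2 and 3. At 30 min it was 1.93, 2.16 and 8.56, and at 1 h 1.92, 9.18 and 12.9. At 2 h it was 4.03, 5.80 and 8.28, and at 4 h 3.67, 6.69 and 7.71. The ratio at 2 h and 4 h was above that of untreated cells in all libraries, whereas at 30 min and 1 h replicate 1 lay within the untreated range.

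On the log2 scale (0.5 added to each count) the mean ratio was 0.58 ± 0.38 before LPS (SD, n = 3), 1.71 ± 1.19 after 30 min, 2.60 ± 1.46 after 1 h, 2.53 ± 0.52 after 2 h and 2.52 ± 0.57 after 4 h. An exact permutation F test over the 5 groups, which runs through 1401400 partitions of the 15 libraries, did not reach the threshold (p = 0.108). Permuted within replicate numbers, in 14400 arrangements, the exact p was 0.0507, and 0.0483 with 1 in place of 0.5 added to each count. Against untreated cells the exact two-sided p was 0.1 at 2 h and 4 h, the smallest that 3 libraries against 3 allow, and 0.2 at 30 min and 1 h (0.2 at each time after adjustment over the 4 comparisons). The time courses were thus not shown to differ. Only the permutation within replicate numbers came near the threshold, and it passed only with 1 added to each count. After LPS the ratio was 7.71 to 12.9 in libraries numbered 3, which held the least Il10, and 1.92 to 4.03 in those numbered 1.

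**Figure D4:**
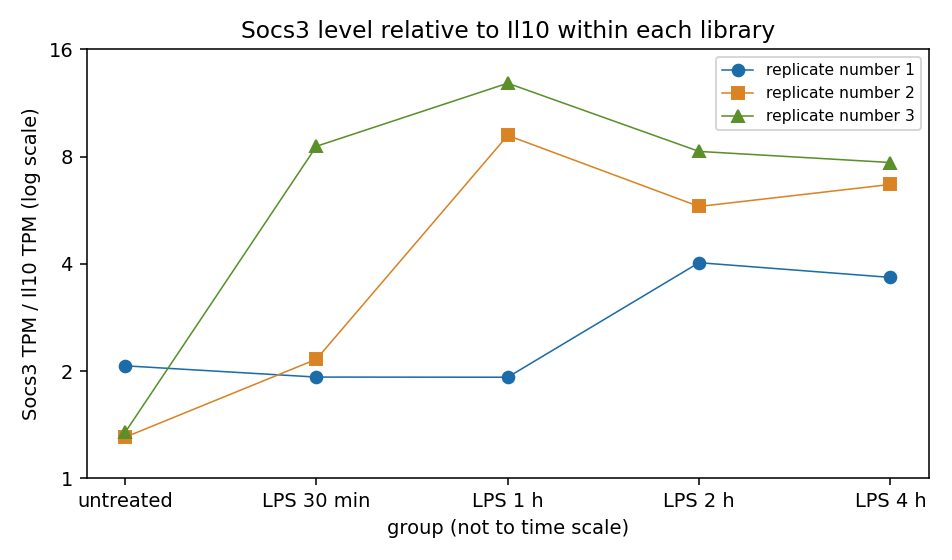
Socs3 TPM divided by Il10 TPM (log axis) in each library, with lines joining libraries of the same replicate number. The ratio lies between 1.31 and 2.07 in untreated cells and between 1.92 and 12.9 after LPS, with replicate 3 highest at each LPS time.

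Similarity of pattern was measured by Pearson's r over the 15 libraries in log2 CPM, among the 17315 transcripts that reached a group mean of 10 CPM. Since the untreated libraries stand apart for any induced transcript, r mostly reflects the rise, and the libraries share their scaling and replicate numbers. The 2 members had r = 0.92 with each other, and r = 0.77 within the 12 LPS libraries. For Socs3, 101 other transcripts had r above 0.9, and Il10 was the 70th closest. For Il10 only 18 did, and Socs3 was the 10th closest.

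The transcript most like Il10 was ENSMUST00000028846.6 (1617 nt, r = 0.94, and 0.84 within the LPS libraries). Its log2 fold changes over untreated cells were 5.86, 5.41, 6.78 and 5.88 at the 4 times. The transcript most like Socs3 was ENSMUST00000123255.1 (490 nt, r = 0.98, and 0.90 within the LPS libraries), with 5.81, 6.14, 6.74 and 6.78. Both were picked for their likeness in these libraries, so these values are a description and no test is given. The tables used here pair neither identifier with a gene name.

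Reads of Il10 were assigned without division in all 15 libraries, where its estimated counts were whole numbers to within 1e-06. Those of Socs3 were whole in 4 of 15, the 3 untreated libraries and 30 min replicate 1. In the other libraries part of the reads was shared out with another transcript, and the amount is not given in the files. An unstranded library also leaves reads of any transcript that overlaps on the other strand unseparated.

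For Socs3, the RefSeq promoter table (GRCm38.p6) holds a window, and its 250 bases before the RefSeq start were searched on both strands because STAT3 is a known regulator of the gene. The window held 1 match to TTCNNNGAA, the general STAT motif, which 7.02% of 32851 windows hold. It is shown in capitals in the 30 bases around it, at chr11:117969502-117969531 on the minus strand, with the match beginning 154 bases before that start.
Socs3: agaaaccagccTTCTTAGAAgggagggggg
The window also held 1 match to the GC box GGGCGG, as do 32.7% of windows, and no match to TTCCNGGAA (0.913% of windows), TGANTCA (AP-1, 6.75%), TGACGTCA (CRE, 1.55%), GGGANTTTC or GGANNTTCC (parts of NF-kB sites, 0.941% and 3.59%), TGTTTAC (forkhead, 3.17%), CCGGAAG (ETS, 6.91%) or TATAAA (core promoter box, 12.4%). A match describes letters and is no evidence of binding. RefSeq's span of the Socs3 gene reaches further upstream than this window, so that the window lies inside the annotated gene and may not be its only start region. The deposited files give no coordinates, so that the start of the quantified Socs3 transcript was not placed against this window.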

How the data were processed

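Per the submitters' processing notes, transcript abundances were estimated with kallisto 0.44.0; annotation release and genome build were not given in the sources used here. Per the file headers, the authors deposited an estimated count and a TPM value for 113193 transcripts per library, indexed as spliced transcripts by Ensembl identifier. Effective lengths were 1010.56 nt for Il10 and 2252.56 nt for Socs3.

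From the deposited estimated counts, rounded to whole numbers, all transcripts were tested with edgeR 4.0.16 (R 4.3.3): TMM scaling, filterByExpr (minimum count 10, total 15), 1 term per group over 15 libraries, quasi-likelihood F tests and Benjamini-Hochberg adjustment. The test was also run on counts simulated from the untreated means. That simulation held no difference between replicate numbers, so it cannot show how the test performs on libraries tied by number. Fold changes are the fit's; the SE is the estimate divided by the square root of F. Depth was 7537521 to 11892599 counts. Groups and replicate numbers come from the titles. All 30 same-numbered pairs of libraries of different groups had correlated deviations (r from 0.20 to 0.46, other pairs -0.28 to -0.01). Deviations were taken from means of 3 libraries, which forces other pairs negative on average where same-numbered pairs are positive. The number was taken to pair the libraries, and blocked fits are given. DESeq2 1.42.0, limma 3.58.1, other scalings, filters and left-out libraries were alternatives. The members, gene lists and tests were chosen with earlier results of these data known. Besides the members, the naming rule took the transcript with the highest correlation with each. The pathway and marker lists were set by gene symbol and could not be run, since identifiers are not paired with symbols here. Il10 has no entry in the promoter table and is named only.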

Additional observations from a re-analysis of the deposited data

How the results depend on the processing

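Both transcripts stayed above untreated cells under all 28 alternatives, with log2 fold changes of 3.45 to 5.76 for Il10 and 4.89 to 7.32 for Socs3. Calls moved across the threshold for both, and the cause was not tested. The Il10 value at 2 h passed no longer with library size alone (4.75), with DESeq2 size factors in edgeR (5.20), with library size alone without the most abundant transcript (4.70), in limma on log2(TPM + 1) and log2(TPM + 0.1) (3.99 and 4.29) and with only the 2 groups compared (5.19). Socs3 at 30 min was lost with only the 2 groups compared (5.83). In DESeq2, Il10 passed at 30 min (5.20), at 1 h (4.68) and in the joint test (adjusted p = 0.0073).

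With the replicate block Il10 passed at 30 min (4.85), at 1 h (4.34) and in the joint test (adjusted p = 0.0080). The block took no call from Socs3 or from Il10 at 2 h and 4 h. Permuted within the replicate block, the exact p for the course of the ratio was 0.0507 (0.0526 and 0.0483 with 0.1 or 1 added to the counts), and without the block adding 0.1 or 1 gave exact p = 0.114 or 0.100.

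Over all transcripts, the joint test called 2942, against 7510 with the block, 8383 in DESeq2 and 4526 in limma on log2(TPM + 1). At 30 min against untreated cells 170 were called, against 464 with the block, 1126 in DESeq2, 81 with library size alone, 0 with only the 2 groups compared (edgeR, where 2197 had an unadjusted p under 0.05) and 5 to 354 without single libraries.

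Leaving out 1 library at a time gave log2 fold changes of 4.89 to 6.09 (30 min) and 5.80 to 6.41 (1 h) for Socs3 and of 4.37 to 5.76 (2 h) and 4.47 to 5.66 (4 h) for Il10, and calls were lost within each range. Leaving out all libraries of a replicate number left 2 per group. Without replicate 1 of every group, Socs3 missed the threshold at 30 min (6.36), 1 h (6.43), 2 h (6.63), 4 h (6.88) and in the joint test (adjusted p = 0.194), and Il10 at 2 h (4.38) and 4 h (4.48). Without replicate 2 these were 5.01, 6.00, 7.00, 6.79 and 0.164 for Socs3 and 5.70 and 5.57 for Il10. Without replicate 3, Socs3 missed it at 30 min (5.79), 1 h (6.08), 2 h (6.97) and in the joint test (0.0568), and Il10 at 2 h (5.47). These fits rest on 10 libraries and called few transcripts of any kind. At 4 h they called 89 of 44474 without replicate 1, 142 of 47384 without replicate 2 and 829 of 47121 without replicate 3. In that order they called 0, 1 and 11 at 2 h, and 0, 1 and 199 in the joint test. None was called at 30 min or 1 h.

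Over the alternatives, 29 values of differences between LPS times had the opposite sign, none of them past the threshold. For Il10 from 30 min to 4 h the value was -0.0045 with library size alone, -0.24 without the most abundant transcript, -0.031 with DESeq2 size factors and -0.032 in DESeq2, and -0.89 and -0.075 without replicate 1 or 3 of every group. From 2 h to 4 h Il10 gave 0.063 with the block and 0.10 without replicate 1, and Socs3 0.0064 with DESeq2 size factors, 0.0064 in DESeq2, 0.015 with the block and 0.25 without replicate 1. From 30 min, Il10 gave -0.99 at 2 h without replicate 1 and 1.12 at 1 h without replicate 2. Without single libraries, Il10 ran from -1.70 to 0.83 (30 min to 1 h), -0.78 to 1.36 (30 min to 2 h), -0.67 to 1.27 (30 min to 4 h), -0.31 to 1.82 (1 h to 2 h), -0.20 to 1.75 (1 h to 4 h) and -0.80 to 0.84 (2 h to 4 h), and Socs3 from -0.45 to 0.51 (2 h to 4 h). Depth limits untreated Il10 most, at 7 to 26 counts per library.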
